A study of Rattus norvegicus with 40 samples.

Results

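The opioid and cannabinoid receptors and peptides were followed in rat dorsal root ganglia (DRGs) after injury of a spinal nerve. The set names 8 genes, which are the opioid receptors *Oprm1*, *Oprd1*, *Oprk1* and *Oprl1*, the opioid peptide precursors *Penk* and *Pdyn*, the cannabinoid receptor *Cnr1* and the enzyme *Faah*. A gene was counted as a member where a probeset, the group of array probes that measures 1 transcript, carried exactly that symbol in the platform annotation. This found 7 of the 8 genes, with 14 of the 31042 probesets tested. The 2 probesets of *Faah* list its symbol under a pair of gene identifiers and so did not meet this criterion, and *Faah* is described beside the members and left out of their counts. Each gene is represented by its brightest probeset over all 40 arrays, and further probesets are numbered by brightness.

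Male Sprague-Dawley rats had the L5 spinal nerve tightly ligated (SNL, 5 rats) or the same operation without a ligature (sham, 5 rats). The L4 and L5 DRGs were taken from the ipsilateral and the contralateral side of every rat 4 weeks later, so the ipsilateral and contralateral SNL L4, SNL L5, sham L4 and sham L5 DRGs make 8 groups of 5 arrays. The L5 DRG holds the neurons of the ligated nerve, and the nerve of the neighbouring L4 DRG was not ligated. All 40 arrays come from operated rats.

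Opioid receptors and the cannabinoid receptor CB1, which *Cnr1* encodes, signal through the Gi/o class of G proteins. In sensory neurons they lower cyclic AMP, reduce the opening of calcium channels and thereby limit transmitter release from the central terminals, and they are known as targets of analgesic drugs. *Penk* and *Pdyn* encode the precursors from which enkephalins and dynorphins are cut, and *Faah* encodes the enzyme that breaks down the endocannabinoid anandamide.

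Most members had low signals, which rank the brightness of the probesets and not the abundance of the transcripts. By its mean over all arrays, *Cnr1* stood at the 72.7th percentile of all probesets, *Oprl1* at 60.9 and *Penk* at 59.6, and these 3 of the 7 members lay above the median probeset. *Oprk1* stood at the percentile 41.4, *Oprm1* at 25.1, *Pdyn* at 18.4 and *Oprd1* at 7.41. The values are MAS 5 signals, a linear measure of brightness. Differences were tested as log2(signal + 16) with limma and adjusted over all probesets, so that a fold change understates the change of a dim gene, and a difference was called at an adjusted p under 0.05. Over all probesets the median log2 difference between the sides was 0.07 in SNL L4, 0.12 in SNL L5 and 0.06 at either segment of sham rats. With the arrays scaled to 1 median it was -0.02, 0.00, -0.07 and -0.11, and changes relative to the median of all probesets are given where the members are described.

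The arrays of the 2 sides also differed in overall measures. The median signal of an array, which ranged over the series between 28.6 and 55.6, was higher on the ipsilateral side in all 4 comparisons, by 4.97 to 7.12, with no overlap between the sides (two-sided p = 0.00794 by an exact permutation test, the lowest value possible for 5 arrays a side). GAPDH has probesets at both ends of its transcript, and the log2 excess of the 3′ end, a sign of RNA degradation, was greater ipsilaterally by 0.95 in SNL L4, 0.64 in SNL L5, 0.43 in sham L4 and, with overlapping sides, 0.09 in sham L5. The same measure for actin differed by 0.77, 1.14, -0.21 and 0.22 in that order, with overlap except in SNL L5. The arrays also hold control probesets for bacterial transcripts. The level of these controls was higher ipsilaterally, without overlap of the sides, in sham L5 (difference 1.13), sham L4 (1.06) and SNL L4 (0.81). For SNL L5 the difference was 0.31, with overlapping sides. Neuron markers were abundant on every array, with a summed signal of 12489 or more over 10 genes. All 10 nerve injury markers rose in SNL L5, with a median log2 difference of 3.34. In sham L5, 8 rose and 0 fell (median 0.62), or 6 rose and 2 fell with equal medians. In SNL L4, 5 rose and 1 fell, and in sham L4, 4 rose and 1 fell. The SNL L5 arrays belong to another array series than the other 30. A difference in level between SNL L5 and another group thus cannot be told apart from the array series. Each comparison of sides lies within 1 series. There the array names number the 5 arrays of each group in a row, so side cannot be told apart from array order. The tests of SNL against sham rats at L5 and of L5 against L4 in SNL rats set 1 series against the other. The part of these differences, and of array series and order, in the results for the members was not tested.

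**Figure D1:**
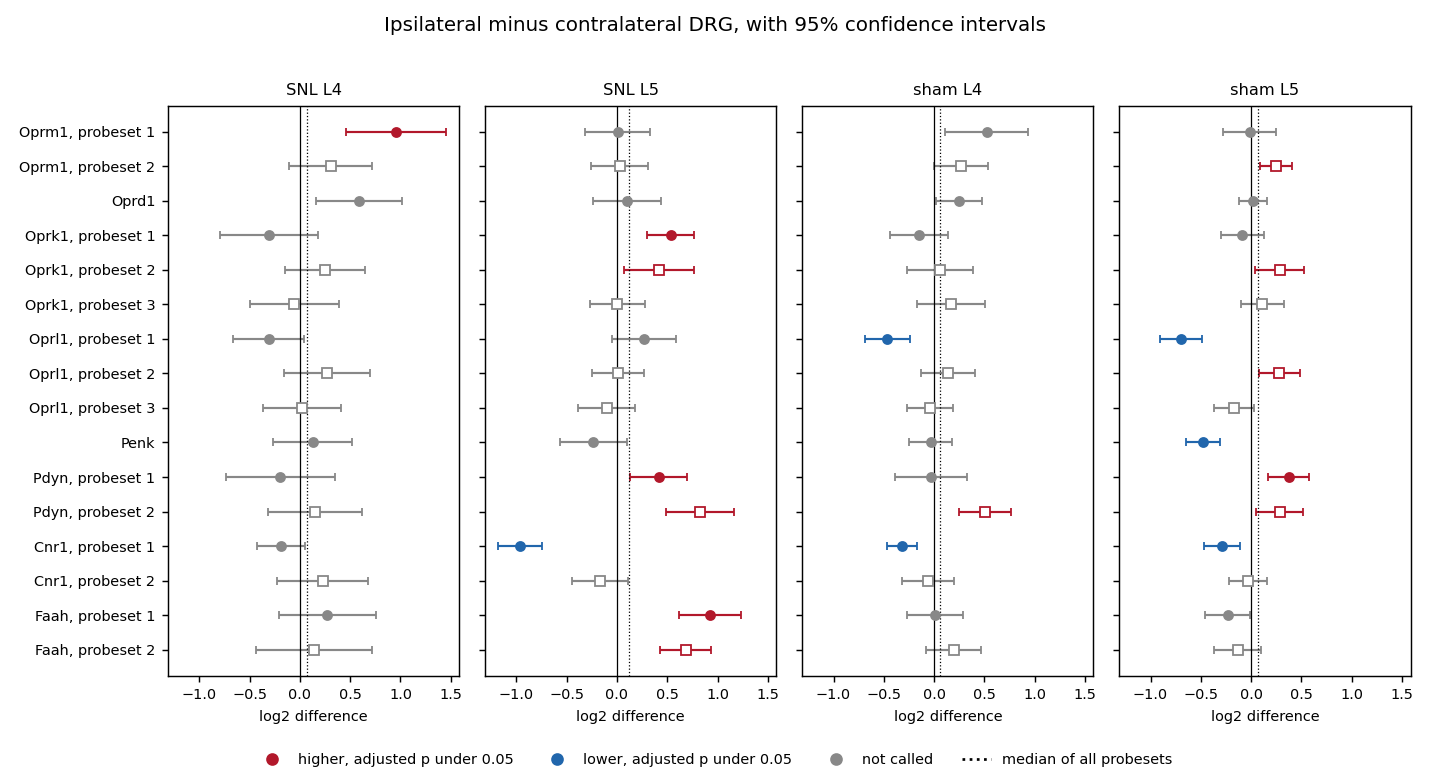
Log2 difference between ipsilateral and contralateral DRGs for every probeset of the members and of *Faah*, with 95% confidence intervals, in the 4 comparisons (5 arrays a side). Circles are the brightest probesets, open squares are further probesets, and the dotted line is the median of all probesets. *Cnr1* in SNL L5 lies at -0.96 and *Oprm1* in SNL L4 at 0.95.

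In the ligated L5 DRG the receptor genes moved in different directions. *Cnr1* fell by 0.96 on the log2 scale, *Oprk1* rose by 0.53 and *Pdyn* rose by 0.41, while *Oprm1*, *Oprd1*, *Oprl1* and *Penk* were not called. In this comparison 47.2% of all probesets were called (30.3% higher and 16.8% lower), a share that 3 of 7 members did not exceed. In SNL L4, where 19.1% of all probesets were called (10.1% higher), 1 of 7 members was called, *Oprm1*, which rose. In sham L4 (27.1% of all probesets called, 9.85% lower) *Oprl1* and *Cnr1* fell, 2 of 7 members. In sham L5 (50.3% of all probesets called, 31.1% higher and 19.3% lower) *Oprl1*, *Penk* and *Cnr1* fell and *Pdyn* rose, 4 of 7 members. Among probesets below the median signal, where *Oprm1*, *Oprd1*, *Oprk1* and *Pdyn* lie, 6.49% and 28% were called in SNL rats at L4 and L5, and 18.8% and 42.6% in sham rats at L4 and L5. The share of all calls that were higher on the ipsilateral side was, for SNL L4, SNL L5, sham L4 and sham L5, 52.9, 64.3, 63.7 and 61.7% as deposited. In the same order it was 46.0, 51.8, 50.2 and 44.1% with quantile normalization, and 27.5, 40.8, 26.9 and 32.0% with equal medians.

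*Cnr1* had the deepest fall of the 7 members over the 4 comparisons of sides. On the ligated side its signals in SNL L5 were 37.0, 36.8, 45.7, 36.2 and 45.9, against 113, 75.7, 83.9, 106 and 92.8 on the contralateral side of the same rats. The sides did not overlap, as for 33.9% of all probesets in this comparison, and all 5 rats had the lower signal on the ligated side. The log2 difference of -0.96 (standard error 0.10, 95% confidence interval -1.18 to -0.75, adjusted p = 5.90e-07) was -1.08 relative to the median of all probesets.

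In the other comparisons the differences of *Cnr1* were smaller. It averaged 95.2 ± 12.1 in ipsilateral and 111 ± 12.2 in contralateral SNL L4 (SD, n = 5 each), and the log2 difference of -0.19 was not called (limma, adjusted p = 0.269). In sham L4 it averaged 108 ± 4.57 on the ipsilateral and 138 ± 10.6 on the contralateral side (SD, n = 5 each), a fall by 0.32 on the log2 scale (limma, adjusted p = 0.00307). The sides did not overlap there, as for 18.2% of all probesets. In sham L5 it averaged 109.7 ± 14.1 on the ipsilateral and 137 ± 14.7 on the contralateral side (SD, n = 5 each), a fall by 0.29 (limma, adjusted p = 0.0101), with overlapping sides. That call was lost with quantile normalization of the arrays (log2 difference -0.14, limma adjusted p = 0.148).

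Over the 8 groups, the level of *Cnr1* was highest in the contralateral sham DRGs and lowest in ipsilateral SNL L5. Levels in SNL L5 against those of other DRGs cannot be told apart from the array series. From high to low the group means were 138 in contralateral sham L4, 137 in contralateral sham L5, 111 in contralateral SNL L4, 109.7 in ipsilateral sham L5, 108 in ipsilateral sham L4, 95.2 in ipsilateral SNL L4, 94.2 in contralateral SNL L5 and 40.3 in ipsilateral SNL L5. Neighbours in this order overlapped except at the last step, where every array of ipsilateral SNL L5 lay below every array of contralateral SNL L5. The second *Cnr1* probeset was dim, with group means between 2.36 and 8.09, and was not called in any of the 4 comparisons.

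The fall of *Cnr1* in SNL L5 came with lower neuronal marker signals. All 8 of the nociceptor markers measured, of 10 listed, fell in that comparison, with a median log2 difference of -1.62. Their summed signal was 3229 to 3451 in ipsilateral and 8342 to 9241 in contralateral SNL L5. Of the 10 general neuron markers, 3 rose and 6 fell, and their summed signal was 16251 to 19148 in ipsilateral and 18110 to 22898 in contralateral SNL L5, with 0 up and 7 down when array medians were equal. In whole DRGs, fewer cells of a type and less RNA per cell cannot be told apart, and the part of the cell composition in the fall of *Cnr1* was not tested. In sham L5, where *Cnr1* also fell, 9 of the 10 neuron markers rose, with a summed signal of 18481 to 23152 in ipsilateral and 12489 to 13812 in contralateral DRGs. That count was 3 with quantile normalization and 6 with equal medians.

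**Figure D2:**
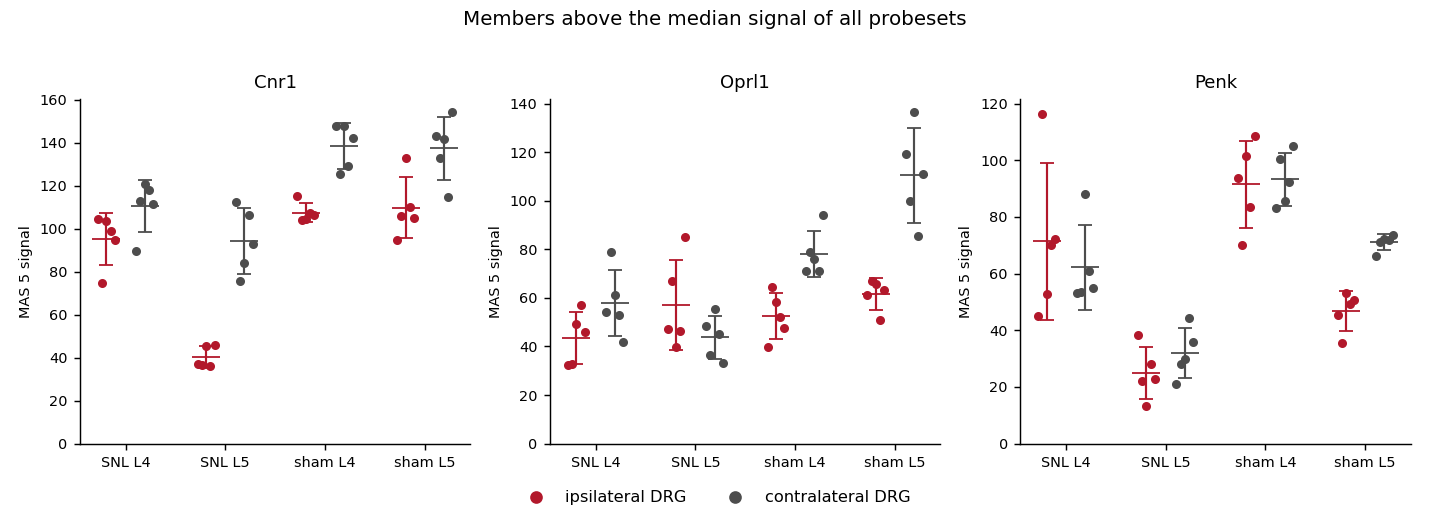
Signal of *Cnr1*, *Oprl1* and *Penk* on each array, by group, with ipsilateral DRGs to the left of contralateral DRGs. Each point is 1 array, with the mean ± SD of the group drawn as bars. The 5 ipsilateral SNL L5 arrays of *Cnr1* lie between 36.2 and 45.9, below every other array.

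*Oprm1*, which encodes the mu opioid receptor, the main target of morphine, was called by its brightest probeset in SNL L4 and in no other comparison of sides. Its signals were 51.8, 50.1, 51.4, 61.3 and 35.6 in ipsilateral L4 DRGs, against 22.4, 37.2, 4.10, 27.2 and 8.82 in contralateral L4 DRGs of the same rats. The signal was higher on the ipsilateral side in all 5 rats, and the sides overlapped through the lowest ipsilateral array, at 35.6, and the highest contralateral array, at 37.2. The log2 difference was 0.95 (standard error 0.24, 95% confidence interval 0.45 to 1.45, adjusted p = 0.00800 from limma), or 0.89 relative to the median of all probesets. With the methods' t-test the difference missed the threshold after adjustment (adjusted p = 0.0534). The dimmer second probeset of *Oprm1* differed by 0.30 and was not called (limma, adjusted p = 0.321).

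Elsewhere the signals of *Oprm1* were lower. In SNL L5 they were 10.9 to 19.1 on the ipsilateral side and 6.61 to 22.5 on the contralateral side, with a log2 difference of 0.01 (95% confidence interval -0.32 to 0.33). In sham L4 they averaged 18.7 ± 11.5 on the ipsilateral and 7.42 ± 4.05 on the contralateral side (SD, n = 5 each). The difference of 0.52 missed the threshold (limma, adjusted p = 0.0548), although all 5 rats had the higher signal on the ipsilateral side. It was called with the rat as a block (limma, adjusted p = 0.0379) and in a joint fit of all 8 groups (adjusted p = 0.0483). Leaving out contralateral rat 17 (0.60) or ipsilateral rat 14 (0.69) also gave a call. In sham L5 the means were 6.71 ± 5.18 and 6.49 ± 1.25 (SD, n = 5 each), and the log2 difference was -0.01. The second *Oprm1* probeset was called higher there (0.25, limma adjusted p = 0.0106), a call lost with quantile normalization (0.05) and with equal medians (0.19). By mean level, ipsilateral SNL L4 stood first at 50.03 and contralateral SNL L4 second at 19.9, and the lowest group was contralateral sham L5 at 6.49. Every pair of neighbours in that order overlapped.

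*Oprd1*, the delta opioid receptor, was the dimmest member by brightest probeset and was called in no comparison. In SNL L4 its signals were 5.43, 7.18, 12.2, 28.5 and 25.3 on the ipsilateral side, against 3.62, 4.55, 4.00, 5.14 and 3.92 on the contralateral side. The sides did not overlap, as for 15% of all probesets there, and 2 of the ipsilateral arrays were far above the other 3. The log2 difference of 0.58 missed the threshold (limma, adjusted p = 0.0522). It was called with quantile normalization (limma, adjusted p = 0.0412) and without the ipsilateral array of rat 4 (0.71, adjusted p = 0.0194) or of rat 8 (0.68, adjusted p = 0.0316). A joint fit of all 8 groups, which called 10507 probesets in SNL L4, also called it (adjusted p = 0.00212). In SNL L5, sham L4 and sham L5 the log2 differences of *Oprd1* were 0.10, 0.25 and 0.01, and none was called. The signal was again higher on the ipsilateral side in all 5 sham rats at L4.

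*Oprk1*, the kappa opioid receptor that dynorphins bind, had its highest signals in the ligated L5 DRG. They were 45.0, 52.9, 52.4, 50.8 and 58.1 on the ipsilateral side, against 41.4, 25.9, 34.2, 24.2 and 30.0 on the contralateral side. No arrays overlapped, as for 33.9% of all probesets in this comparison, and all 5 rats were higher on the ligated side. The log2 difference was 0.53 (standard error 0.11, 95% confidence interval 0.30 to 0.77, adjusted p = 0.000700 from limma), or 0.41 relative to the median of all probesets. In the order of the 8 groups, ipsilateral SNL L5 stood first at a mean of 51.8 and contralateral SNL L5 second at 31.1. That was the only step without overlap, and the other 7 group means lay between 20.6 and 31.1. The place of SNL L5 among the other DRGs cannot be told apart from the array series.

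The further probesets of *Oprk1* gave weaker evidence. The second was called higher in SNL L5 (log2 difference 0.42, limma adjusted p = 0.0449) and lost the call when 1 of 6 arrays was left out, those of rats 4, 9, 18 and 48 ipsilaterally and of rats 18 and 48 contralaterally. Without contralateral rat 18 it was 0.25. The call was also lost with quantile normalization (0.27, limma adjusted p = 0.238) and with equal medians (0.30, adjusted p = 0.167). An offset of 1 (adjusted p = 0.0768), limma without its intensity trend (adjusted p = 0.0525) and the methods' t-test (adjusted p = 0.116) ended it too. The third differed by 0.00. *Oprk1* was not called in SNL L4, where 1 ipsilateral array gave 1.72 and the other 4 gave 22.6 to 31.7, with a log2 difference of -0.31. The second probeset was also called higher in sham L5 (0.29, limma adjusted p = 0.0496). That call ended on leaving out any of 7 of the 10 arrays, at 0.20 to 0.29, and the value reversed to -0.03 with quantile normalization. In sham L4 and sham L5 the brightest probeset differed by -0.15 and -0.09 and was not called. The sham L5 difference was called as a fall with quantile normalization (-0.29, limma adjusted p = 0.0189) and with equal medians (-0.31, adjusted p = 0.0240).

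*Oprl1*, which encodes the receptor for nociceptin, differed between the sides in sham rats. In sham L5 its signals were 61.4, 67.1, 65.7, 50.7 and 63.1 on the ipsilateral side, against 119, 99.9, 137, 85.3 and 111 on the contralateral side. The sides did not overlap, as for 34.2% of all probesets there. The log2 difference was -0.69 (standard error 0.10, 95% confidence interval -0.91 to -0.48, adjusted p = 4.48e-05 from limma), or -0.76 relative to the median of all probesets. In sham L4 the signals were 39.9, 64.5, 58.3, 52.2 and 47.7 on the ipsilateral side, against 71.0, 78.9, 75.9, 70.9 and 93.9 on the contralateral side. These did not overlap either, as for 18.2% of all probesets there, and *Oprl1* fell by 0.46 (limma, adjusted p = 0.00478). All 5 sham rats had the lower signal on the ipsilateral side at both segments.

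In SNL rats *Oprl1* was not called at either segment. It averaged 57.0 ± 18.6 in ipsilateral and 43.8 ± 8.96 in contralateral SNL L5 (SD, n = 5 each), a log2 difference of 0.27 (limma, adjusted p = 0.157). In SNL L4 it averaged 43.4 ± 10.7 on the ipsilateral and 57.7 ± 13.6 on the contralateral side (SD, n = 5 each), a log2 difference of -0.31 (limma, adjusted p = 0.224). The second probeset of *Oprl1* went the other way in sham L5, where it was called higher (log2 difference 0.28, limma adjusted p = 0.0241), and it reversed to -0.02 with quantile normalization. This call was also lost without the ipsilateral (0.21) or the contralateral (0.23) array of rat 23. The third probeset differed there by -0.17 and was not called as deposited, but it was called as a fall with quantile normalization (-0.51) and with equal medians (-0.33).

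The peptide precursor *Penk* had its lowest group means in L5 DRGs of SNL rats, a level that cannot be told apart from the array series. It fell on the ipsilateral side in sham L5. The sham L5 signals were 45.4, 35.4, 53.2, 49.2 and 50.7 on the ipsilateral side, against 66.3, 71.3, 72.2, 72.0 and 73.6 on the contralateral side. The sides did not overlap, as for 34.2% of all probesets there. The log2 difference was -0.48 (standard error 0.08, 95% confidence interval -0.65 to -0.31, adjusted p = 0.000209 from limma), or -0.54 relative to the median of all probesets. In SNL L5 the signals were 38.2, 22.2, 13.4, 28.0 and 22.9 on the ipsilateral side, against 21.0, 28.1, 29.8, 44.4 and 36.0 on the contralateral side. They overlapped, and the difference of -0.23 was not called as deposited (limma, adjusted p = 0.242). After quantile normalization it was -0.39 and called as a fall (adjusted p = 0.0477).

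At L4 the sides did not differ detectably in *Penk*. In SNL L4 it averaged 71.3 ± 27.7 on the ipsilateral and 62.2 ± 14.9 on the contralateral side (SD, n = 5 each), with 1 ipsilateral array at 116 and 1 contralateral array at 88.2 above the rest of their groups. The log2 difference was 0.13 (95% confidence interval -0.27 to 0.52). In sham L4 it averaged 91.5 ± 15.2 and 93.3 ± 9.37 (SD, n = 5 each), and the log2 difference was -0.03 (95% confidence interval -0.25 to 0.18).

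*Pdyn* rose as deposited in the L5 DRGs of both cohorts. In SNL L5 the signals of its brightest probeset were 18.1, 9.24, 6.99, 16.1 and 16.1 on the ipsilateral side, against 7.01, 7.54, 8.54, 5.72 and 0.856 on the contralateral side. The sides overlapped, and the log2 difference of 0.41 (limma, adjusted p = 0.0194) was 0.29 relative to the median of all probesets. The call was lost with quantile normalization (adjusted p = 0.111) and with equal medians (adjusted p = 0.0583). It was also lost in a joint fit of all 8 groups (adjusted p = 0.0774) and by the methods' t-test (adjusted p = 0.0531). Leaving out contralateral rat 48 also ended it (0.32, adjusted p = 0.0621).

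The second *Pdyn* probeset also rose on the ligated side. Its signals were 31.7, 15.4, 20.5, 25.1 and 22.7 in ipsilateral SNL L5, against 5.37, 17.1, 3.86, 4.09 and 1.65 in contralateral SNL L5. The highest contralateral array, at 17.1, overlapped the lowest ipsilateral array. The log2 difference was 0.83 (standard error 0.16, 95% confidence interval 0.49 to 1.16, adjusted p = 0.000365 from limma), or 0.70 relative to the median of all probesets, and every array left out in turn kept the call.

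In sham L5 both *Pdyn* probesets rose as deposited. The brightest averaged 10.2 ± 3.88 on the ipsilateral and 4.05 ± 1.19 on the contralateral side (SD, n = 5 each), with a log2 difference of 0.37 (limma, adjusted p = 0.00475). Its sides did not overlap, as for 34.2% of all probesets there. The second differed by 0.28 (limma, adjusted p = 0.0396), and both calls were lost with quantile normalization, at 0.17 and 0.14. Both were also lost in the joint fit of all groups (adjusted p = 0.125 and 0.195). Leaving out 1 array ended the call of the second probeset for 7 of the 10 arrays, at 0.22 to 0.30. In sham L4 the second probeset rose (0.51, limma adjusted p = 0.00615) without overlap of the sides, as for 18.2% of all probesets there, while the brightest differed by -0.03. In SNL L4 neither was called, at log2 differences of -0.19 and 0.15.

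*Faah* rose in the ligated L5 DRG by both of its probesets. The brighter probeset gave 49.0, 28.7, 38.7, 23.3 and 44.7 in ipsilateral SNL L5, against 14.9, 5.92, 13.4, 11.9 and 11.4 in contralateral SNL L5. The dimmer probeset gave 38.9, 26.4, 28.0, 41.0 and 30.8 on the ipsilateral side, against 12.2, 12.0, 13.9, 15.1 and 19.0 on the contralateral side. For neither probeset did the sides overlap, as for 33.9% of all probesets there. By limma the log2 differences were 0.93 ± 0.15 (standard error, adjusted p = 4.84e-05) and 0.68 ± 0.12 (adjusted p = 0.000139), or 0.81 and 0.56 relative to the median of all probesets. By the brighter probeset, ipsilateral SNL L5 had the highest group mean, at 36.9, and contralateral SNL L5 the lowest, at 11.5. By the dimmer probeset, contralateral sham L4 was lowest, at 11.9. Levels in SNL L5 against other groups cannot be told apart from the array series. In SNL L4, sham L4 and sham L5 neither probeset of *Faah* was called, with log2 differences of 0.27, 0.01 and -0.23 for the brighter one. In sham L5 both were called as falls with quantile normalization (-0.46 and -0.41) and with equal medians (-0.45 and -0.33), and the brighter one also without ipsilateral rat 23 (-0.30).

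**Figure D3:**
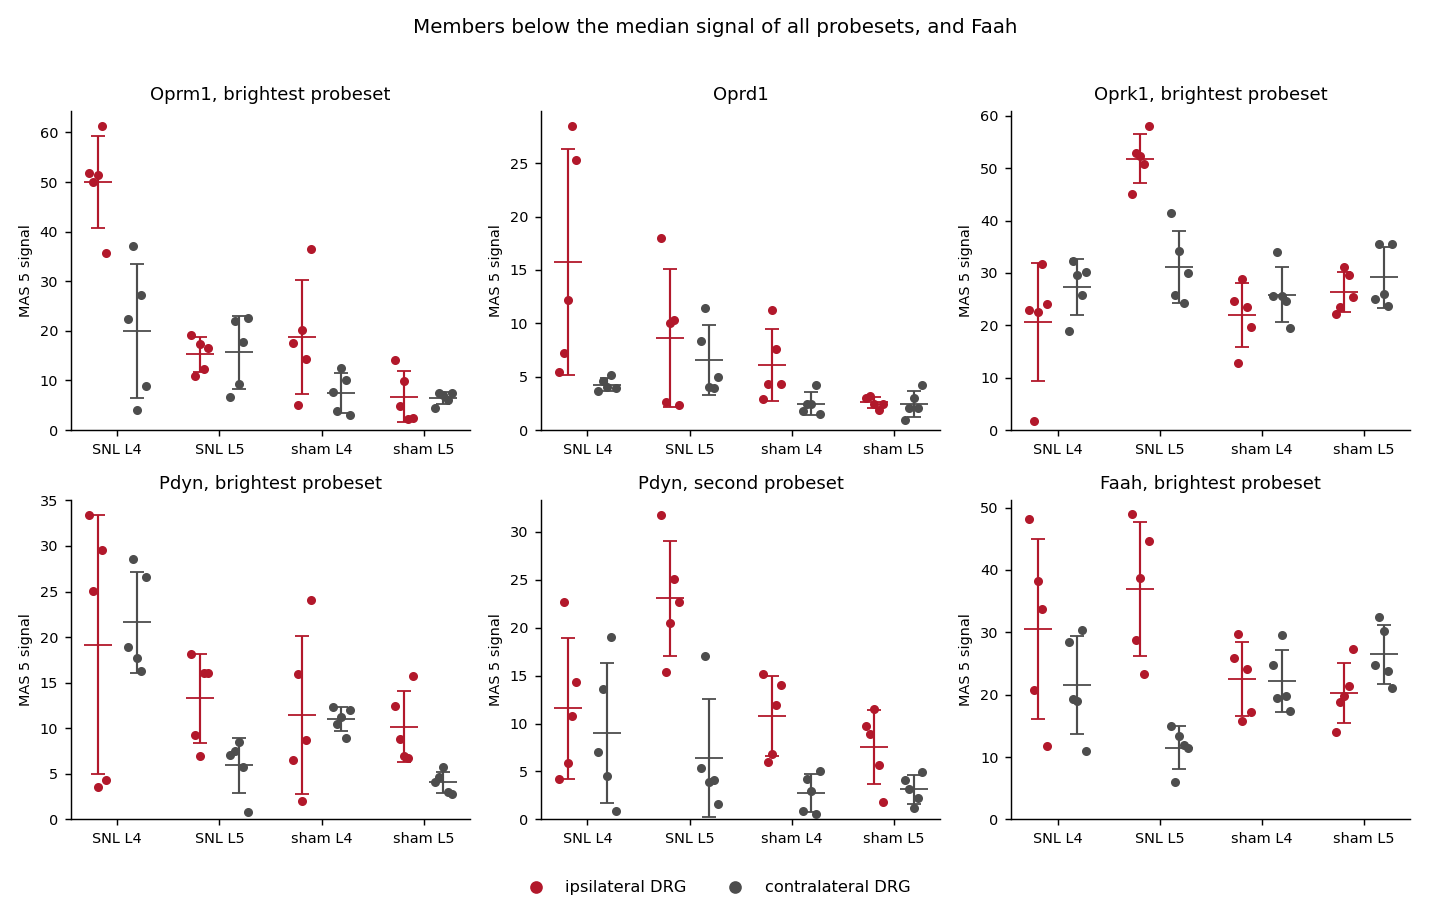
Signal of *Oprm1*, *Oprd1*, *Oprk1*, *Pdyn* (2 probesets) and *Faah* on each array, by group, with ipsilateral DRGs to the left of contralateral DRGs. Each point is 1 array, with the mean ± SD of the group drawn as bars. *Oprm1* is highest in ipsilateral SNL L4, where 4 of 5 arrays exceed 50, and *Oprk1* in ipsilateral SNL L5, where the arrays lie between 45.0 and 58.1.

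Whether the side difference was larger after ligation than after sham surgery was tested as the difference between the 2 side differences. At L5, *Cnr1* fell further in SNL than in sham rats, by 0.67 on the log2 scale (standard error 0.13, limma adjusted p = 0.000172). The side difference of *Oprk1* was higher in SNL than in sham rats by 0.62 (standard error 0.15, limma adjusted p = 0.00127). That of *Oprl1* was higher by 0.96 (standard error 0.19, limma adjusted p = 0.000168), with 0.27 in SNL L5 and -0.69 in sham L5. No further probeset of either gene was called in this test, with 0.13 and -0.11 for *Oprk1* and -0.27 and 0.06 for *Oprl1*. By brightest probeset *Cnr1*, *Oprk1* and *Oprl1* made 3 of 7 members called, against 43.2% of all probesets called in that test.

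Of the remaining genes at L5, *Penk* differed between the cohorts by 0.24 (95% confidence interval -0.14 to 0.63) and was not called. The brightest *Pdyn* probeset differed by 0.04 (95% confidence interval -0.31 to 0.39), and the second by 0.54 (limma, adjusted p = 0.0318). The second probeset's call was lost with the rat as a block (adjusted p = 0.0596), with equal medians (0.49, adjusted p = 0.0622) and in a joint fit of all groups (adjusted p = 0.0762). It was also lost without any 1 of 8 of the 20 arrays, at 0.44 to 0.52. Both *Faah* probesets were higher in SNL than in sham rats, by 1.16 (adjusted p = 1.02e-05) and 0.82 (limma, adjusted p = 0.000139).

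At L4, none of the 7 members differed between SNL and sham rats, neither at an adjusted p under 0.05 from limma nor at an unadjusted one, against 14% of all probesets called. For *Oprm1* the difference was 0.43 with a 95% confidence interval of -0.24 to 1.10, which covers both no difference and more than the rise of 0.95 in SNL L4 itself. For *Oprd1* it was 0.34 (95% confidence interval -0.14 to 0.82).

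Within SNL rats, the side difference at L5 was set against that at L4, and 3 of 7 members differed, against 19.2% of all probesets. For *Cnr1* the difference of L5 minus L4 was -0.77 (standard error 0.15, limma adjusted p = 0.000423), for *Oprm1* -0.95 (standard error 0.30, adjusted p = 0.0234) and for *Oprk1* 0.84 (standard error 0.26, adjusted p = 0.0239). Leaving out 1 contralateral DRG ended the call of *Oprm1* for L4 of rat 9 (-0.76), L4 of rat 48 (-0.84) and L5 of rat 48 (-0.87). With an offset of 1 in place of 16, which gives more weight to dim signals, the *Oprm1* and *Oprk1* calls were lost, at -1.53 and 1.49. *Oprl1*, at 0.58, was not called (adjusted p = 0.0834), but was on leaving out L4 of rat 48 contralaterally (0.66), or L4 of rat 18 (0.66) or L5 of rat 9 (0.67) ipsilaterally. It was also called in a joint fit of all 8 groups (adjusted p = 0.0269) and among probesets with a group mean signal of at least 50 (adjusted p = 0.0491). *Faah*, at 0.66, was called only without ipsilateral L4 of rat 4 (0.79) and in a joint fit of all 8 groups (adjusted p = 0.0365).

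**Figure D4:**
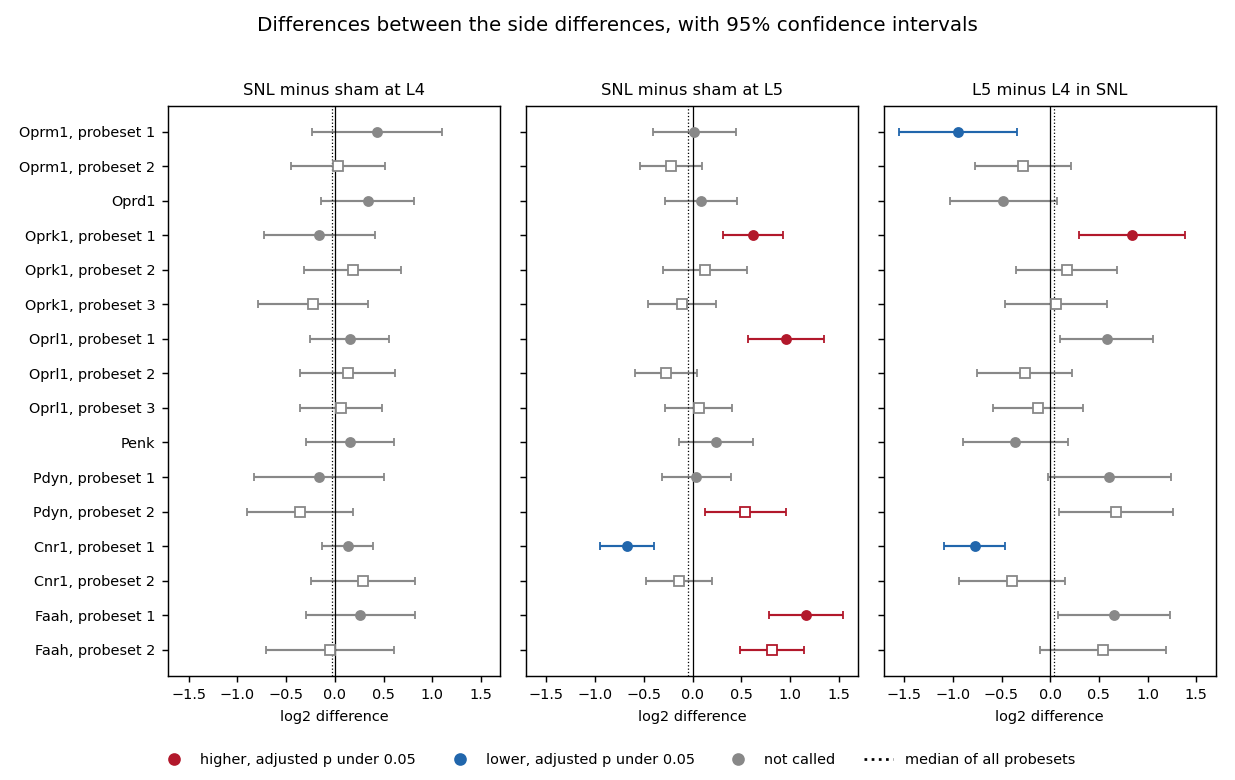
Difference between 2 side differences, on the log2 scale with 95% confidence intervals, for every probeset of the members and of *Faah*. The panels set SNL against sham rats at L4 and at L5, and L5 against L4 in SNL rats (20 arrays in each fit). At L4 no probeset differs between SNL and sham rats, and at L5 *Cnr1* lies at -0.67 and *Oprl1* at 0.96.

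The genes that make, carry and act on these receptors and peptides were read from 5 lists, of which 85 of 99 genes were measured. Over all 31042 probesets, 30.3% were called higher and 16.8% lower in SNL L5, and 10.1% and 9.01% in SNL L4. Among probesets above the median signal, 66.3% were called in SNL L5 and 31.8% in SNL L4. With equal medians, 5220 probesets were called higher and 7584 lower in SNL L5, and 1585 and 4179 in SNL L4. The list counts are to be read beside these shares. Of 12 genes of opioid peptide processing and breakdown, 4 rose and 4 fell in SNL L5 (median log2 difference 0.11, against 0.12 over all probesets), and 1 rose and 1 fell in SNL L4 (median 0.01, against 0.07). With equal medians 2 rose and 4 fell in SNL L5, and 0 rose and 2 fell in SNL L4. *Mme*, which encodes neprilysin, an enzyme that cleaves enkephalins, rose by 0.93 in SNL L5 (limma, adjusted p = 8.28e-06). *Anpep*, an aminopeptidase that also degrades them, rose by 0.76 (adjusted p = 0.000219). All 6 fibroblast markers rose in SNL L5 as well, with a summed signal of 9668 to 11085 in ipsilateral and 3378 to 3635 in contralateral DRGs, and their part in these rises was not tested. *Pcsk2*, a convertase that cuts the precursors, fell by 0.51 (adjusted p = 0.00222), and by 0.20 in sham L5 (adjusted p = 0.0197, but 0.0563 with quantile normalization). *Scg5*, the chaperone of that convertase, fell by 1.18 in SNL L5 (adjusted p = 2.79e-12) and in SNL L4 by 0.34 (adjusted p = 0.000792). *Pcsk1n*, an inhibitor of the related convertase, rose by 0.30 in SNL L4 (adjusted p = 0.00854), a call lost with equal medians (0.17, adjusted p = 0.178).

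Of 15 endocannabinoid genes, 6 rose and 6 fell in SNL L5 (median -0.04), and 4 rose and 1 fell in SNL L4 (median 0.09). With equal medians 3 rose and 8 fell in SNL L5 (median -0.24), and 1 rose and 1 fell in SNL L4 (median -0.04). *Cnr2*, the cannabinoid receptor of immune cells, rose by 0.59 in SNL L5 (limma, adjusted p = 0.00364) and by 0.57 in sham L5 (adjusted p = 0.000204), and the cohorts differed by 0.03 (adjusted p = 0.930). In SNL L5, 6 of 8 macrophage markers also rose, with a summed signal of 1115 to 1252 in ipsilateral and 376 to 415 in contralateral DRGs, and in sham L5 2 rose and 5 fell, with sums of 482 to 618 in ipsilateral and 602 to 696 in contralateral DRGs. Their part in the rise of *Cnr2* was not tested. In SNL L4 its rise of 0.62 (adjusted p = 0.0293) was lost with either other scaling. It was also lost on leaving out contralateral rat 8 (0.48) or 18 (0.62), or ipsilateral rat 8 (0.60), 9 (0.57) or 18 (0.56). *Cnrip1*, whose product binds CB1, rose by 0.46 in SNL L5 (adjusted p = 1.80e-06). *Trpv1*, a channel that anandamide can open and a nociceptor marker, fell by 1.95 in SNL L5 (adjusted p = 1.54e-13). *Fabp7*, a lipid carrier and satellite glia marker, fell by 1.31 (adjusted p = 1.11e-10), and by 0.53 in sham L5 (adjusted p = 0.00110). *Mgll*, which degrades the endocannabinoid 2-AG, rose by 0.36 in SNL L4 (adjusted p = 0.00170), and its 3 other probesets were not called there. A dimmer probeset of *Mgll* was called as a fall in sham L4 (-0.66, adjusted p = 0.00556) and in sham L5 (-0.39, adjusted p = 0.00854). *Daglb*, which makes 2-AG, fell by 0.28 in SNL L4 (adjusted p = 0.0267). That call ended on leaving out contralateral rat 4, 9 or 48, or ipsilateral rat 4 or 8, at -0.24 to -0.28. The dimmer probeset of *Daglb* differed in SNL L4 by 0.04 and was not called (adjusted p = 0.911).

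Of 25 genes of Gi/o signalling measured, 3 rose and 9 fell in SNL L5 (median -0.05), and 1 rose and 6 fell in SNL L4 (median -0.10). With equal medians 2 rose and 12 fell in SNL L5, and the SNL L4 counts stayed at 1 and 6. *Gnao1*, the abundant Go alpha subunit of neurons, fell by 0.71 in SNL L4 (limma, adjusted p = 7.88e-06), and *Gnai1*, a Gi alpha subunit, fell by 0.94 (adjusted p = 0.000757). In SNL L5 these fell by 1.45 and 0.78. *Gnao1* also fell in sham L4, by 0.39 (adjusted p = 0.00141), and *Gnai1* in sham L5, by 0.28 (adjusted p = 0.0238). *Gnai2*, another Gi alpha subunit, rose by 0.43 in SNL L5 (adjusted p = 8.21e-06), as did *Adcy6*, an adenylyl cyclase, by 0.58 (adjusted p = 0.000117). The dimmer probeset of *Adcy6* differed there by 0.16 and was not called (adjusted p = 0.328). It was called higher in SNL L4 (0.81, adjusted p = 0.0125). *Rgs4*, which shortens Gi/o signals, fell by 2.32 in SNL L5 (adjusted p = 4.52e-15) and *Rgs10*, of the same family, fell by 1.82 (adjusted p = 9.62e-13). In the sham comparisons the 2 probesets of *Rgs4* were called in opposite directions, with 0.26 and -0.74 at L4 and 0.33 and -0.47 at L5, and the rise of the brighter one was lost with either other scaling. *Gnb2*, a G protein beta subunit, rose by 0.55 in SNL L4 (adjusted p = 0.0137), by 0.51 in sham L4 (adjusted p = 0.00702) and by 0.44 in sham L5 (adjusted p = 0.000988). SNL and sham rats differed in *Gnb2* by 0.04 at L4 (adjusted p = 0.935), and its other probeset was not called in any comparison of sides.

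Of 17 genes of receptor desensitization and trafficking, 6 rose and 4 fell in SNL L5 (median 0.10), and 3 rose and 2 fell in SNL L4 (median 0.08). With equal medians the balance turned, to 4 higher and 6 lower in SNL L5 and 0 higher and 4 lower in SNL L4. *Flna*, which encodes filamin A, a scaffold that binds the mu opioid receptor, rose by 1.15 in SNL L5 (limma, adjusted p = 3.43e-11) and by 0.37 in SNL L4 (adjusted p = 0.00286). Of the 6 fibroblast markers, 5 rose in SNL L4 as well, with a summed signal of 6841 to 7197 in ipsilateral and 4166 to 4738 in contralateral DRGs, and all 6 in SNL L5, and their part in the rise of *Flna* was not tested. *Wls*, whose product also binds that receptor, rose by 0.83 in SNL L5 (adjusted p = 8.45e-07). *Arrb2*, the arrestin that uncouples opioid receptors, fell by 0.60 in SNL L5 (adjusted p = 6.71e-06). In SNL L4 it fell by 0.35 (adjusted p = 0.0418), a call that ended on leaving out any contralateral rat, or ipsilateral rat 4 or 48, at -0.25 to -0.37. It also fell in sham L4, by 0.22 (adjusted p = 0.0154), but not with quantile normalization (adjusted p = 0.217). *Prkca*, a protein kinase C, fell by 0.51 in SNL L5 and by 0.57 in SNL L4 (adjusted p = 0.000192 and 0.00493). *Dnm1*, a dynamin of endocytosis, rose by 0.31 in SNL L4 (adjusted p = 0.00791). After scaling to equal medians the SNL L4 calls of *Flna* (0.23, adjusted p = 0.0505) and *Dnm1* (0.18, adjusted p = 0.152) were lost.

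Of 16 regulators of opioid and cannabinoid genes, 12 rose and 2 fell in SNL L5 (median 0.45), or 9 and 3 with equal medians. In SNL L4, 6 rose and 2 fell (median 0.15), or 3 and 2 with equal medians. *Atf3*, a transcription factor of injured neurons that is also among the nerve injury markers, rose by 3.69 in SNL L5 (limma, adjusted p = 9.85e-17) and by 1.0005 in SNL L4 (adjusted p = 0.000726), and *Jun* rose by 1.39 in SNL L5 (adjusted p = 1.96e-12). *Atf3* also rose in sham L4, by 0.39, and in sham L5, by 0.43 (adjusted p = 0.0143 and 0.000205), and both calls were lost with equal medians. *Kcnip3* encodes DREAM, known in mice as a repressor of *Pdyn*. It fell by 2.004 in SNL L5 (adjusted p = 3.45e-11), by 0.26 in sham L5 (adjusted p = 0.00596), and rose by 0.26 in SNL L4 (adjusted p = 0.0442). The SNL L4 call was lost with quantile normalization (adjusted p = 0.0713) and with equal medians (adjusted p = 0.342), and the sham L5 call with quantile normalization (adjusted p = 0.238). *Rest*, a repressor of neuronal genes, rose by 0.57 in SNL L4 (adjusted p = 0.00486), by 0.47 in SNL L5 (adjusted p = 0.000922) and by 0.49 in sham L5 (adjusted p = 0.000265), and in SNL L4 its dimmer probeset differed by -0.16 (adjusted p = 0.736). *Sp1* fell by 0.63 in SNL L4 (adjusted p = 0.00197) and by 0.47 in sham L4 (adjusted p = 0.000957), and rose by 0.43 in SNL L5 (adjusted p = 0.000593). No other probeset of *Sp1* was called in SNL L5, at 0.23, 0.01, -0.08 and -0.11. In SNL L4 they differed by 0.37, -0.21, -0.52 and -0.47, and the latter pair was called as falls (adjusted p = 0.0258 and 0.0125). Between SNL and sham rats at L4 the brightest probeset of *Sp1* differed by -0.16 (adjusted p = 0.583). *Creb1*, which mediates transcription in response to cyclic AMP, fell by 0.44 in SNL L4 (adjusted p = 0.00495) and by 0.33 in SNL L5 (adjusted p = 0.00116), while a dimmer probeset of the gene rose by 0.33 in SNL L5 (adjusted p = 0.0196). In SNL L4 the other probesets of *Creb1* differed by 0.37, 0.17 and -0.03, and none was called (adjusted p = 0.0848, 0.544 and 0.903). The first and last of these were called higher in sham rats, by 0.84 and 0.61 at L4 and by 0.82 and 0.61 at L5.

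**Figure D5:**
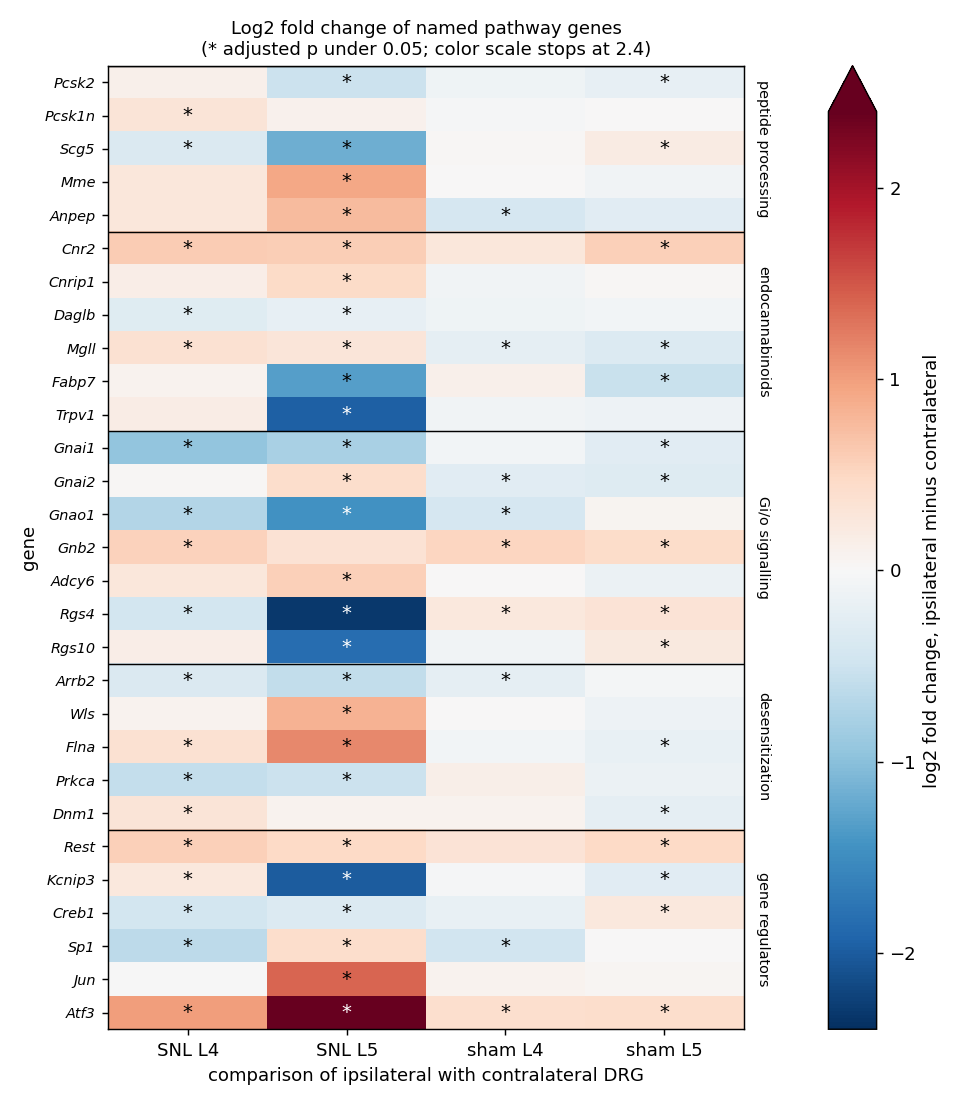
Log2 fold change, ipsilateral minus contralateral, of the named genes of the 5 pathway lists (rows) in the 4 comparisons (columns), by the brightest probeset of each gene. Red is higher and blue lower on the ipsilateral side, and asterisks mark an adjusted p under 0.05 from limma. *Kcnip3* (-2.004) and *Rgs4* (-2.32) in SNL L5 are among the deepest falls, and *Atf3* (3.69) exceeds the color scale.

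The genes whose signal followed the 3 brighter members most closely over the 40 arrays were found among 8935 other genes above the median signal. These correlations are descriptions, since the arrays share groups, rats and overall brightness. *Cnr1* was followed by *Susd4* (r = 0.94), *Lgi3* (r = 0.93) and *Sphkap* (r = 0.93). *Penk* was followed by *Pacsin2* (r = 0.86), *Frmpd1* (r = 0.86) and *Ypel3* (r = 0.84), and *Oprl1* by *Ppp2r5e* (r = 0.80), *Rnf44* (r = 0.77) and *Gspt2* (r = 0.76).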

How the data were processed

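mRNA was measured on 40 Affymetrix rat genome arrays, 1 per DRG, and samples were grouped by the procedure, segment and side in their labels. The values the authors deposited are linear intensity signals made with MAS 5 (its version: not given in the sources used here). The trimmed mean of each array lay near 100.0. Depth does not apply to arrays, and their number limits the precision. Signals were tested as log2(signal + 16) with lmFit and eBayes (trend on intensity) from limma 3.58.1 under R 4.3.3, on the 10 arrays of a comparison or, for differences between comparisons, on 20. Benjamini-Hochberg adjustment covered 31042 probesets, 57 control probesets left out, and a call needed an adjusted p under 0.05. Confidence intervals are at 95%, and p-values measure the spread between DRGs of separate rats. The methods name a t-test and do not call it paired, and the rat entered as an alternative.

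The same rat gave both sides, so the rat numbers pair the DRGs. For each rat the deviations of both DRGs from their group means were correlated over probesets. The coefficients lay within -0.01 and 0.04 (SNL L4), -0.06 and 0.04 (SNL L5), -0.05 and 0.10 (sham L4), and -0.14 and 0.01 (sham L5).

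Gene symbols came from the platform annotation, which gives 1 symbol for 20826 probesets, several for 436 and none here for 9780. The members and gene lists were chosen with earlier results of these data known. The rule for named genes takes all members with all their probesets, and from each pathway list, for SNL L4 and SNL L5, the called genes with up to 2 of the largest rises and up to 2 of the largest falls on the brightest probeset. It also takes, for each member above the median signal, the 3 genes with the highest Pearson correlation, and the nerve injury and neuron markers as a check of the labels. The fits were tested on simulated data. Alternatives tried were an offset of 1 or 64, 2 other scalings (quantile normalization and equal array medians), a group mean signal of at least 50, eBayes without its trend, a joint fit of the 8 groups, a threshold of 0.01, the methods' t-test (with its threshold of 0.001 or adjusted), a rat block, any probeset in place of the brightest, and each array left out in turn. No sequence is printed.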

Additional observations from a re-analysis of the deposited data

Results flagged for a closer look

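The side difference of 3 members was not the same in SNL and sham rats at L5 by the test of that difference itself (limma). It was 0.62 higher on the log2 scale in SNL than in sham rats for *Oprk1* and 0.96 higher for *Oprl1*, and for *Cnr1* the value for SNL minus sham was -0.67. Within SNL rats, the side difference at L5 minus that at L4 was -0.95 for *Oprm1*, 0.84 for *Oprk1* and -0.77 for *Cnr1*. A single array stood far from its group: *Penk* had a signal of 88.2 in the contralateral L4 DRG of SNL rat 9, against 53.2 to 60.9 in the other 4 DRGs of that group. Of 56 groups examined in this way, chance marks about 1 in 20.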

How the results depend on the processing

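Of 1338 values of the members and *Faah* under the alternatives, 1294 kept their direction and side of the threshold, 23 lost a call, 21 gained one and 0 reversed. For the further probesets 2 of 1312 reversed, with quantile normalization in sham L5: *Oprk1* probeset 2 at -0.0298 and *Oprl1* probeset 2 at -0.0190. In SNL L4, where 1 member and 5938 probesets were called, 2 members were called with quantile normalization and 2 in the joint fit (10507 probesets), and 0 by the methods' t-test, both adjusted (4853 probesets) and at its own threshold (2510 probesets). A threshold of 0.01 left 3559. In sham L4, with 2 members and 8413 probesets, quantile normalization left 5552 probesets, the dim filter 5607, the stricter threshold 4560 and the t-test 2995 with 1 member. The t-test left 7387 of 14638 probesets in SNL L5, and 6892 of 15618 with 2 of 4 members in sham L5, where the dim filter left 8206. For SNL minus sham at L4 the stricter threshold left 2451 of 4347 probesets. For L5 minus L4 in SNL it left 3825 of 5953 probesets and 1 of 3 members, and an offset of 1 left 5822 probesets and 1 member. With equal medians the share of calls that were higher was 58.4% in place of 40.9% for SNL minus sham at L4, and 47.0% in place of 57.9% for L5 minus L4. By any probeset, 6 members were called in sham L5, with 8 of their 14 probesets, against 50.3% of all probesets. In sham L4 it was 3 members, with 3 of 14 probesets, against 27.1%. A member with several probesets has more than 1 chance of a call by this rule. The cause of these changes was not tested.

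With each array left out, the probesets called ranged over 4901 to 5743 in SNL L4 (1 to 2 members), 13541 to 14262 in SNL L5 (2 to 3), 6368 to 8105 in sham L4 (2 to 3), 14036 to 15674 in sham L5 (4 in each), 3631 to 4485 for SNL minus sham at L4 (0 in each), 12749 to 13457 at L5 (3 in each) and 5382 to 6021 for L5 minus L4 (2 to 4). With the rat as a block, 5672 probesets were called in SNL L4, 14350 in SNL L5, 8672 in sham L4, 14727 in sham L5, 4301 and 12962 for SNL minus sham at L4 and L5, and 5809 for L5 minus L4. Of the members' brightest probesets the block changed 1 call, *Oprm1* in sham L4 (adjusted p = 0.0379). Among further probesets it ended the calls of *Oprk1* probeset 2 in SNL L5 (adjusted p = 0.0590) and sham L5 (0.0511), *Oprl1* probeset 2 (0.0595) and *Pdyn* probeset 2 (0.0628) in sham L5, and *Pdyn* probeset 2 for SNL minus sham at L5 (0.0596), and among pathway genes that of *Arrb2* in SNL L4 (0.0524). Most members are dim, and low signals limit the precision of *Oprd1*, *Pdyn* and *Oprm1*.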
